A study of Mus musculus with 16 samples.

Results

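The collagen gene family was taken as every probe of the array whose annotated gene symbol reads Col, a number, a and a number. This rule found 59 of the 25697 probes, which belong to 37 of the 16593 named genes. Of these 37 genes, 27 had a probe that exceeded background on 4 or more of the 16 arrays and entered the test, among 11962 genes or unnamed probes tested in all. The other 10 genes were not tested. By structure the 37 genes were placed in 7 classes, with 11 fibrillar, 8 basement membrane, 3 beaded filament, 6 FACIT (fibril-associated), 2 network, 4 transmembrane and 3 other genes.

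Collagens are the main proteins of the extracellular matrix, built from 3 chains wound around each other. The fibrillar types I, III and V form the tension-bearing fibres around airways and vessels, and type VI forms a fine filament net around cells. Type IV chains form the sheet of the basement membrane that alveolar epithelium and capillary endothelium share, and types XV and XVIII join basement membranes to the tissue beneath. Deposition of fibrillar collagen under the airway epithelium is a known feature of chronic asthma.

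RNA came from the lungs of 16 female C57BL/6N mice aged 17 weeks, with 4 mice and 4 Illumina bead arrays per group. The groups were untreated wild type, untreated Cox4-2 knockout (called mutant), challenged wild type and challenged mutant. Challenged mice had 10 µg ovalbumin with 2 mg alum injected into the abdomen, and later breathed an aerosol of 1% ovalbumin 3 times for 30 min, which is a model of allergic airway inflammation. Nothing in the labels says whether untreated mice were sensitised, or how the knockout allele was made, and all 4 mutant mice of a group carry the same genotype. The gene, Cox4i2 on the array, encodes a lung form of a subunit of cytochrome c oxidase in the mitochondrial respiratory chain. The Cox4i2 probe read 283 ± 59.8 (SD, n = 4) in untreated wild type and 137 ± 55.9 (SD, n = 4) in untreated mutants, and 248 ± 55.6 (SD, n = 4) and 144 ± 66.6 (SD, n = 4) after challenge. It was lower in the mutant by 0.90 and 0.68 on the log2 scale, and neither difference passed limma's test (adjusted p = 0.19 and 0.265). The sources used here do not say where the probe lies against the deleted sequence.

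Values are array intensities on a linear scale, and a value over 16.8 counted as above background. Array medians lay between 27.8 and 28.0. Arrays of 1 group correlated at rank correlations of 0.945 to 0.967. Of the 8 challenged arrays, 3 stood apart, namely replicates 1 and 3 of the challenged wild type and replicate 2 of the challenged mutant. Their mean log2 level of 11 of 12 skeletal muscle genes, relative to untreated wild type, was 3.95 to 5.37, while the other 5 challenged arrays had 0.02 to 0.52 and the 8 untreated arrays -0.20 to 0.16. The same 3 arrays had levels of 3.37 to 4.05 for 7 of 10 squamous epithelium genes, while the other 5 had 0.23 to 0.95. Fat genes stood at 1.19 to 1.46 on these 3 arrays and at -1.43 to -0.08 on the other 5. They are called the other-tissue arrays, and results for the collagens are also given without them. Of 2 cartilage genes tested, the mean level on the 3 arrays was -0.20 to 0.06.

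For 6 genes the 250 bases before the start of their promoter entry are shown, because these genes carry the changes described next or are the partner of one that does. The sequences are from RefSeq, build GRCm38.p6, in which 30 of the 37 genes matched a promoter entry. For Col4a1, Col4a4 and Col4a5 the entry starts inside the annotated gene, so that 63, 185 and 49 of the 250 bases lie within that gene itself. The Col4a1 window also lies wholly inside the annotated Col4a2 gene, and the Col4a2 window wholly inside Col4a1. Part of the Col4a4 window lies inside Col4a3. Capitals mark the CCAAT box (letters CCAAT), the TATA box (letters TATAAA) and the GC box (letters GGGCGG), searched on both strands. The first occurs in 33.8%, the second in 12.4% and the last in 32.7% of all 32851 promoter windows of this length.
Col1a2 (chr6:4505368-4505617, plus strand): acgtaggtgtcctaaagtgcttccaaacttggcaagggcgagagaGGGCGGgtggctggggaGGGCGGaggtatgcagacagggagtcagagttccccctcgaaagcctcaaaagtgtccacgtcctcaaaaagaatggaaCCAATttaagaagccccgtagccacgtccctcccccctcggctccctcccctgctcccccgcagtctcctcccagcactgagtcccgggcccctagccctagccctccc
Col3a1 (chr1:45311288-45311537, plus strand): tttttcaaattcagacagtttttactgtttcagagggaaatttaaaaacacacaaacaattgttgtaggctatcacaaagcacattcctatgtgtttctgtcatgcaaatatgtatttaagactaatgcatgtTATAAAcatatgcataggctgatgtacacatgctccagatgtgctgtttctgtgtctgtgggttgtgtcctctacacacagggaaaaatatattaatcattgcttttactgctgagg
Col4a1 (chr8:11312827-11313076, minus strand): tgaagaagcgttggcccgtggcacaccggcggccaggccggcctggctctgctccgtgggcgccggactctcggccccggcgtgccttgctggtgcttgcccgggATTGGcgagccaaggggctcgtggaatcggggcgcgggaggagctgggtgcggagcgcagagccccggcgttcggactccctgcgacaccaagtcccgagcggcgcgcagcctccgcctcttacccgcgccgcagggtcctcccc
Col4a2 (chr8:11312555-11312804, plus strand): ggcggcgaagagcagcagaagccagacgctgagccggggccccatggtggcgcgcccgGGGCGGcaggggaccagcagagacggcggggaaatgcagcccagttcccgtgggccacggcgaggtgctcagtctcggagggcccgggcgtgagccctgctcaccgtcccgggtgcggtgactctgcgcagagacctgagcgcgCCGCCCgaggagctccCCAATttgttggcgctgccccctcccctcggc
Col4a4 (chr1:82586850-82587099, minus strand): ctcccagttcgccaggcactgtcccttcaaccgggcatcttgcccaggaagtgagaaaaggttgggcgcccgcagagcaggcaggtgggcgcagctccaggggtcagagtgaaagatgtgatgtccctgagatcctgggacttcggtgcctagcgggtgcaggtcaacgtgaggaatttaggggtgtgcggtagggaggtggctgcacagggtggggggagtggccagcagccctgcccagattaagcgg
Col4a5 (chrX:141475169-141475418, plus strand): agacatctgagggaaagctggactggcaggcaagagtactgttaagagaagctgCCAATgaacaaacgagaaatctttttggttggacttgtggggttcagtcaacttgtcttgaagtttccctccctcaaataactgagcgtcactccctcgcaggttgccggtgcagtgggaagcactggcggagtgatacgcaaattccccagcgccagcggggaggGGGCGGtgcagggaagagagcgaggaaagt
Col1a2 held CCAAT 109 bases before the start of its entry and GGGCGG at 205 and 188 bases. Col3a1 held TATAAA at 117 bases and neither of the other motifs. The 3 pairs of type IV genes lie head to head on opposite strands, so that a pair shares the stretch between or around its starts. The annotated genes Col4a1 and Col4a2 on chromosome 8 overlap by 85 bases at their starts, and Col4a4 and Col4a3 on chromosome 1 by 114 bases, while 1274 bases lie between Col4a6 and Col4a5 on chromosome X. A match of letters is a description of the window and does not show that a factor binds there.

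The first comparison asked how collagen transcripts of wild-type lung differ after ovalbumin challenge. Fibrillar Col3a1 and Col1a2, type VI Col6a2 and basement membrane Col15a1 rose, while Col23a1, Col4a3 and Col4a4 fell. Col3a1, the chain of type III collagen in elastic tissues, rose 2.06-fold and Col1a2, the second chain of type I collagen, 1.81-fold. With an adjusted p under 0.05 as the threshold of limma's test, 4 of the 27 collagens were higher and 3 lower, where 8.19% of all 11962 features were higher and 9.43% lower. The median log2 change was 0.23 over the 27 collagens, with 10 below 0, and -0.01 over all features, of which 51% lay below 0. Of the 9 fibrillar genes, 8 lay above 0 with a median of 0.33, and the 8 basement membrane genes had a median of -0.08, with 3 above 0. The 4 challenged arrays lay wholly above the untreated ones for 3 collagens, where 8.06% of all features did, and wholly below for 2, where 9.81% did. All samples are bulk tissue, so more cells that make a collagen and more RNA per cell cannot be told apart.

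**Figure D1:**
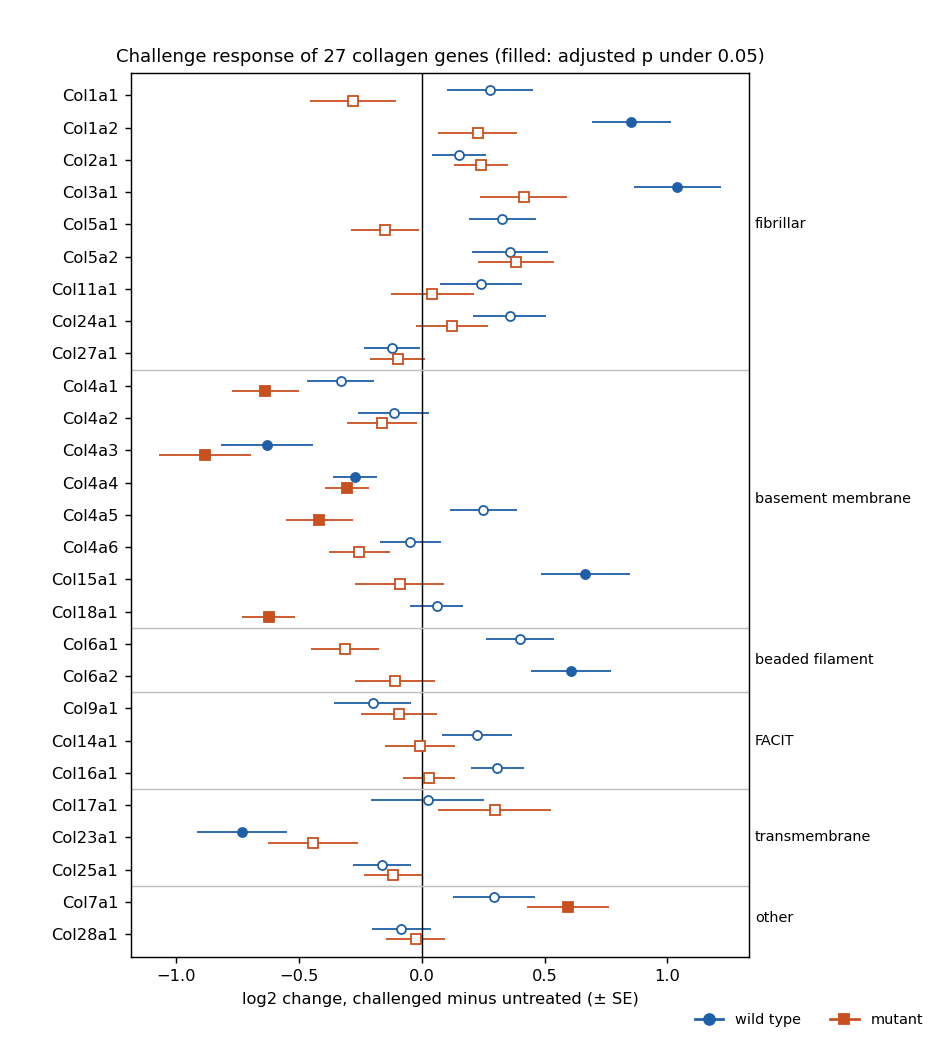
Log2 change after challenge (x axis, challenged minus untreated, ± SE) of the 27 tested collagen genes (y axis), with wild type as blue circles and mutant as orange squares, 4 arrays per group. Symbols are filled where limma's adjusted p was under 0.05, which holds for 7 genes in wild type and 6 in the mutant; all 8 basement membrane genes lie left of 0 in the mutant.

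Values per array are listed in the order of the replicate numbers. Col3a1 (probe ILMN_1258629, chromosome 1, 45311538 to 45349706) read 1015, 896, 989.5 and 785 on the untreated wild-type arrays and 1633, 2431, 1447 and 2401 on the challenged ones. All 4 challenged arrays lay above all 4 untreated arrays, and replicates 1 and 3, the other-tissue arrays, were the lower ones. The log2 change was 1.04 ± 0.18 (SE; limma, adjusted p = 0.00116). Leaving out the 3 other-tissue arrays gave 1.36 ± 0.18 (adjusted p = 0.00026). A second Col3a1 probe (ILMN_2683958) read 28.4 to 130.2 over all arrays and gave a smaller change, 0.53 with an adjusted p of 0.0628 when each probe was tested by itself.

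Col1a2 (chromosome 6, 4505618 to 4541543) read 726, 583, 468 and 627 in untreated wild type and 1029.7, 1429.7, 831 and 1224 after challenge. Again the groups did not overlap and the lower challenged values were those of the other-tissue arrays. The change was 0.85 ± 0.16 (adjusted p = 0.00225), and 1.10 ± 0.17 (adjusted p = 0.000877) without those arrays. Col1a1, which encodes the other chain of type I collagen, read 483, 709, 704 and 503 before and 598, 893, 735 and 705 after challenge, and these groups overlapped. Its change of 0.28 ± 0.18 did not pass (adjusted p = 0.285).

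Of the other fibrillar genes, Col5a1, Col5a2, Col11a1 and Col24a1 had log2 changes of 0.33, 0.36, 0.24 and 0.36 and did not pass the test (adjusted p = 0.109, 0.117, 0.338 and 0.103). Col5a1 and Col5a2 encode chains of type V collagen, which is found inside type I fibrils. Col2a1 and Col27a1, known from cartilage, had values of 0.15 and -0.12 and did not pass (adjusted p = 0.354 and 0.495). Col5a2, Col11a1 and Col24a1 were above background on 7, 6 and 9 of the 16 arrays, so the log2 scale understates their changes.

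Type VI collagen is made of chains that assemble together, of which Col6a1 and Col6a2 were tested. Col6a2 (chromosome 10, 76595756 to 76623630) read 552, 590.0, 498 and 784 in untreated and 849, 1052, 751 and 1116 in challenged wild type. The highest untreated array overlapped the lowest challenged one. Its log2 change was 0.61 ± 0.16 (adjusted p = 0.0172), and it rested on challenged replicates 2 and 4, since leaving out either raised the adjusted p to as much as 0.058. Col6a1 read 3391, 3588, 3709 and 4517 before and 4312, 5428, 4673 and 5717 after challenge, a change of 0.40 ± 0.14 that missed the threshold (adjusted p = 0.0547). Its 3 probes did not give the same result. A second bright probe (ILMN_1259388) read 2244 to 2944 in untreated and 3286 to 4305 in challenged wild type, without overlap, and changed by 0.60 (adjusted p = 0.00476 when each probe was tested by itself). A further, dim probe (ILMN_2589422), above background on 10 of the 16 arrays, gave 0.31 in wild type (adjusted p = 0.122) and -0.58 in the mutant (adjusted p = 0.00543). In the mutant the second probe gave 0.08 (adjusted p = 0.664) and the tested one -0.31 (adjusted p = 0.11).

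Col15a1, the chain of a proteoglycan collagen next to basement membranes, read 121, 109.9, 75.7 and 112 in untreated wild type. After challenge it read 266, 159.8, 205 and 141, the 2 highest being the other-tissue arrays, and the groups did not overlap. Its log2 change was 0.67 ± 0.18 (adjusted p = 0.0186) over all arrays and 0.40 ± 0.16 (adjusted p = 0.1) without the 3 arrays. It also missed the threshold without untreated replicate 3 or challenged replicate 1 alone, with an adjusted p of at most 0.0627. Over the 16 arrays, after subtraction of group means, Col15a1 correlated with the skeletal muscle level at r = 0.72, as a description of arrays that share their tissue make-up. The squamous epithelium and fat levels gave r = 0.73 and 0.70, so these tissues cannot be told apart here. With the muscle level as a covariate the change of Col15a1 was 0.34 (adjusted p = 0.165).

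Col23a1, a transmembrane collagen, fell in wild type. It read 324, 397, 272 and 343 before challenge and 156, 187, 242 and 158 after it, with no overlap. Its log2 change was -0.73 ± 0.18 (adjusted p = 0.0118), and -0.81 ± 0.17 (adjusted p = 0.00493) without the 3 arrays. With the muscle level as a covariate the change was -0.64 and the adjusted p 0.0518.

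Col4a3 and Col4a4 encode chains that join with the Col4a5 chain in the basement membrane of the alveolus and the glomerulus. Col4a3 read 276, 303, 423 and 298 in untreated and 159, 169, 311 and 162 in challenged wild type. The 1 high challenged value was on replicate 3, an other-tissue array, and overlapped the untreated range. The log2 change was -0.63 ± 0.19 (adjusted p = 0.0278), and -0.81 ± 0.17 (adjusted p = 0.00508) without the 3 arrays. Leaving out any 1 of challenged replicates 1, 2 and 4 or of untreated replicates 2 and 3 raised its adjusted p above the threshold, to at most 0.0812. Col4a4 read 285, 304, 367 and 322 before and 254, 270.3, 242 and 263 after challenge. The groups did not overlap, but the change was small, -0.27 ± 0.09 (adjusted p = 0.0461). It did not pass without the 3 arrays (-0.22, adjusted p = 0.189), and the call was lost on leaving out any of 14 of the 16 single arrays, with an adjusted p of up to 0.121.

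The count of 7 fell to 4 when untreated replicate 3 or challenged replicate 2 or 4 was left out. In all, 5 of these 7 wild-type calls remained without the 3 arrays, and Col15a1 and Col4a4 did not pass. In that setting 7 collagens were higher and 2 lower, where 10.6% of all features were higher and 9.39% lower. The added rises were Col7a1 (0.70, adjusted p = 0.00144), Col11a1 (at least 1.22-fold, adjusted p = 0.0262), Col6a1 (0.55, adjusted p = 0.028) and Col16a1 (0.41, adjusted p = 0.0391). Col11a1 has only a bound because no untreated wild-type array was above background. Its tested probe read 35.9 and 23.1 on challenged wild-type replicates 2 and 4, not far above the limit of 16.8. Its probes ILMN_2606039 and ILMN_2776931 were above background on no array, so the rise was seen on 1 probe only. Col7a1, which forms the anchoring fibrils below stratified epithelium, did not pass over all arrays (0.29, adjusted p = 0.237). It read 152, 163, 138 and 143 in untreated wild type and 147, 283, 123 and 251 after challenge. Of the other-tissue arrays, replicate 1 lay within the untreated range and replicate 3 below it, while the other 2 challenged arrays lay far above it. Its residual correlation with the skeletal muscle level over the 16 arrays was -0.79, with -0.78 for the squamous epithelium and -0.76 for the fat level.

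**Figure D2:**
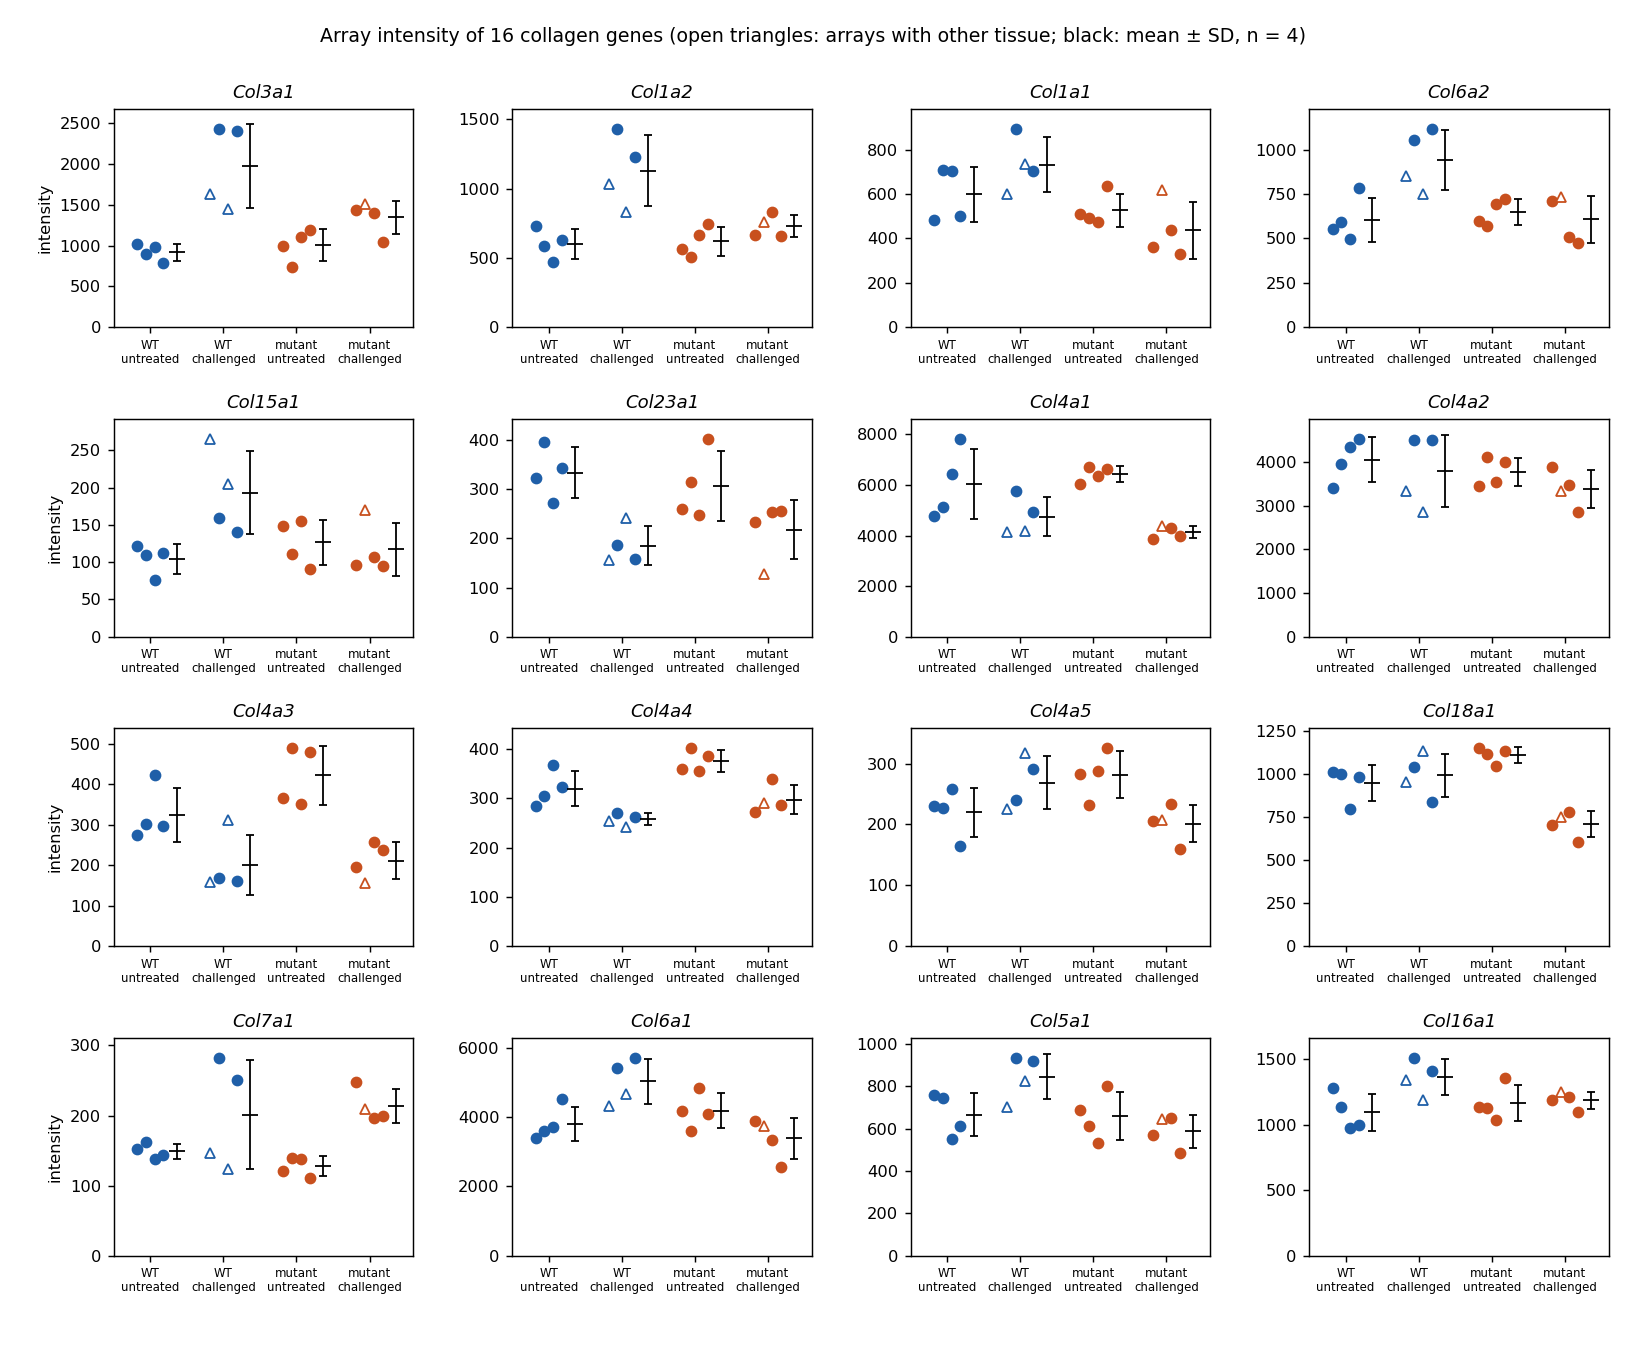
Array intensity (y axis, linear, from 0) of 16 collagen genes in the 4 groups (x axis), with 1 point per array and the mean ± SD (n = 4) in black. Open triangles are the 3 other-tissue arrays; in challenged wild type Col15a1 is high on them (266 and 205) and Col7a1 low (147 and 123), while Col7a1 is not low on the one in the challenged mutant (209).

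The second comparison made the same contrast in Cox4-2 knockout lung. Here 5 basement membrane collagens fell: Col18a1 1.54-fold, Col4a3 1.84-fold, Col4a1 1.55-fold, Col4a4 1.24-fold and Col4a5 1.33-fold. Col7a1 rose 1.51-fold. Thus 5 collagens were lower, where 11.7% of all features were, and 1 was higher, where 12.1% of all features were. All 8 basement membrane genes had a change below 0, with a median of -0.36, and the median over all features was 0.01. The share of all features below 0 was 48.2%. The groups did not overlap for 4 collagens that were lower, where 14.7% of all features were, and for 1 that was higher, where 14.8% were. None of the 9 fibrillar genes passed. Their median was 0.12, with 6 above 0, and 3 of them (Col1a1, Col5a1 and Col27a1) lay below 0. Leaving out untreated replicate 4 or challenged replicate 1 left 3 of the 6 collagens called. Without the 3 other-tissue arrays 5 of the 6 passed, all but Col4a4, 4 lower and 1 higher, where 9.49% of all features were lower and 11.6% higher.

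Col18a1, whose protein yields the fragment endostatin, read 1151, 1115, 1045 and 1135 in untreated mutants and 707, 750.2, 780.2 and 606 in challenged ones. The lowest untreated array was well above the highest challenged one. The log2 change was -0.62 ± 0.11 (adjusted p = 0.00114), and -0.65 ± 0.12 (adjusted p = 0.00233) without the 3 arrays. In wild type the same probe gave 0.06 ± 0.11 (adjusted p = 0.735). A second, dimmer Col18a1 probe (ILMN_2937542), which read 38.4 to 91.5 over all arrays, gave 0.00 in the mutant (adjusted p = 0.991 when each probe was tested by itself), so the fall was seen on 1 of the 2 probes above background.

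Col4a1 and Col4a2 encode the chains found in nearly every basement membrane, and their genes share the stretch around the starts shown above. Col4a1 read 6029, 6694, 6359 and 6642 in untreated mutants and 3861, 4358, 4296 and 3995 after challenge. These groups were far apart, and the other-tissue array, at 4358, was the highest of the challenged ones. The log2 change was -0.64 ± 0.14 (adjusted p = 0.00431), and -0.66 ± 0.14 (adjusted p = 0.00655) without the 3 arrays. In wild type Col4a1 read 4762, 5114, 6440.1 and 7831 before and 4145, 5745, 4168 and 4926 after challenge, and its change of -0.33 did not pass (adjusted p = 0.108). Col4a2 read 3443, 4109, 3553 and 4002 before and 3889, 3334, 3466 and 2849.5 after challenge, which overlap, and its change of -0.16 ± 0.14 did not pass (adjusted p = 0.444, 95% interval -0.46 to 0.14). Per array, the log2 ratio of the Col4a1 to the Col4a2 signal was 0.70 to 0.83 in untreated mutants and -0.01 to 0.48 in challenged mutants, which do not overlap. In wild type it was 0.37 to 0.78 before and 0.13 to 0.53 after challenge, which do. The ratio was computed after the values were seen and is given without a test.

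Col4a3 read 367, 489.9, 353 and 481 in untreated mutants and 196, 155, 257 and 238 in challenged mutants. The groups did not overlap, and the lowest value was on the other-tissue array. The change was -0.88 ± 0.19 (adjusted p = 0.0036), and -0.77 ± 0.15 (adjusted p = 0.00346) without the 3 arrays. Its head-to-head partner Col4a4 read 359.8, 402, 355 and 386 before and 271, 289, 339 and 287 after challenge, again without overlap. The change was -0.31 ± 0.09 (adjusted p = 0.0213), and -0.30 ± 0.10 (adjusted p = 0.053) without the 3 arrays. It was lost on leaving out any of 5 single arrays, with an adjusted p of at most 0.0657. A dimmer Col4a4 probe gave -0.23 (adjusted p = 0.167 when each probe was tested by itself).

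Col4a5, on the X chromosome, read 282, 233, 287 and 325 in untreated and 205, 207, 233 and 160.4 in challenged mutants. The highest challenged value about equalled the lowest untreated one, so the groups met at their edges. Its log2 change was -0.42 ± 0.14 (adjusted p = 0.0349), and -0.43 with an adjusted p of 0.0498 without the 3 arrays; as single arrays were left out the adjusted p reached 0.113. Its neighbour Col4a6 read 53.4 to 77.4 before and 31.5 to 71.2 after challenge and did not pass (-0.25, adjusted p = 0.144). Col15a1, which had risen in wild type, gave -0.09 ± 0.18 in the mutant (adjusted p = 0.761).

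Marker levels of the cells on either side of the alveolar basement membrane are given beside the fall. Relative to untreated wild type, the mean log2 level of 5 of 6 lung endothelium markers was -0.28 to 0.06 on the untreated and -0.37 to -0.01 on the challenged mutant arrays. Among them Cdh5 read 911 to 1125 on the untreated and 620 to 802 on the challenged mutant arrays, without overlap. The ranges of Pecam1, Tek, Tie1 and Kdr overlapped. The mean level of 5 of 5 alveolar type 2 markers was -0.16 to 0.10 on untreated and -0.08 to 0.06 on challenged mutant arrays. It is a mean of members that went opposite ways. From untreated to challenged mutants Sftpb went from 5244 to 6797 down to 3022 to 4235. Abca3 went from 4370 to 4883 down to 3697 to 4358. Sftpc went from 19829 to 24840 up to 29449 to 32045. These ranges did not overlap, while those of Sftpa1 and Lamp3 did. In challenged wild type the endothelium level was -0.47 to -0.25, below all 4 untreated wild-type arrays at -0.14 to 0.14. The part of either cell type in the fall was not tested.

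Col7a1 rose in the mutant, with 121, 139.9, 138 and 110.5 on the untreated and 248, 209, 197 and 199 on the challenged arrays. The groups did not overlap. Its change was 0.59 ± 0.17 (adjusted p = 0.0176), and 0.60 ± 0.10 (adjusted p = 0.00194) without the 3 arrays. It missed the threshold without untreated replicate 4 or challenged replicate 1, with an adjusted p of at most 0.055. A second Col7a1 probe was above background on no array. Col23a1 read 248 to 403 in untreated mutants and 129 to 255 after challenge, and its change of -0.44 ± 0.18 did not pass (adjusted p = 0.0882).

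The fibrillar genes that rose in wild type did not pass the test in the mutant. Col3a1 read 993, 736, 1109 and 1187 in untreated mutants and 1433, 1508, 1402 and 1048 after challenge. The array at 1048 lay within the untreated range. Its change was 0.42 ± 0.18 (adjusted p = 0.0973), and 0.52 (adjusted p = 0.0307) with the muscle level as a covariate. Col1a2 read 565, 506, 667 and 741 before and 667, 757, 832 and 660.4 after challenge, a change of 0.23 ± 0.16 (adjusted p = 0.316). Whether these changes differ from those of wild type is the subject of the interaction given further on.

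Averaged over both genotypes, 9 collagens passed, 4 higher and 5 lower, where 18.1% of all features were higher and 18.7% lower. Higher were Col3a1 (0.73, adjusted p = 0.000368), Col1a2 (0.54, adjusted p = 0.00157), Col7a1 (0.44, adjusted p = 0.00779) and Col5a2 (0.37, adjusted p = 0.0135). Lower were Col4a3 (-0.75, adjusted p = 0.0004), Col4a1 (-0.48, adjusted p = 0.0012), Col4a4 (-0.29, adjusted p = 0.0022), Col23a1 (-0.59, adjusted p = 0.00226) and Col18a1 (-0.28, adjusted p = 0.00874). Col5a2 was above background on no untreated mutant array and on 3 challenged ones. Its fold there has only a lower bound of 1.05, the challenged mean against the background limit. It did not pass in the mutant alone (adjusted p = 0.0779). In wild type it was above background on 1 untreated and 3 challenged arrays. Col5a2 thus met the filter of 4 arrays only through the challenged arrays, so its call gives no independent support for a rise.

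**Figure D3:**
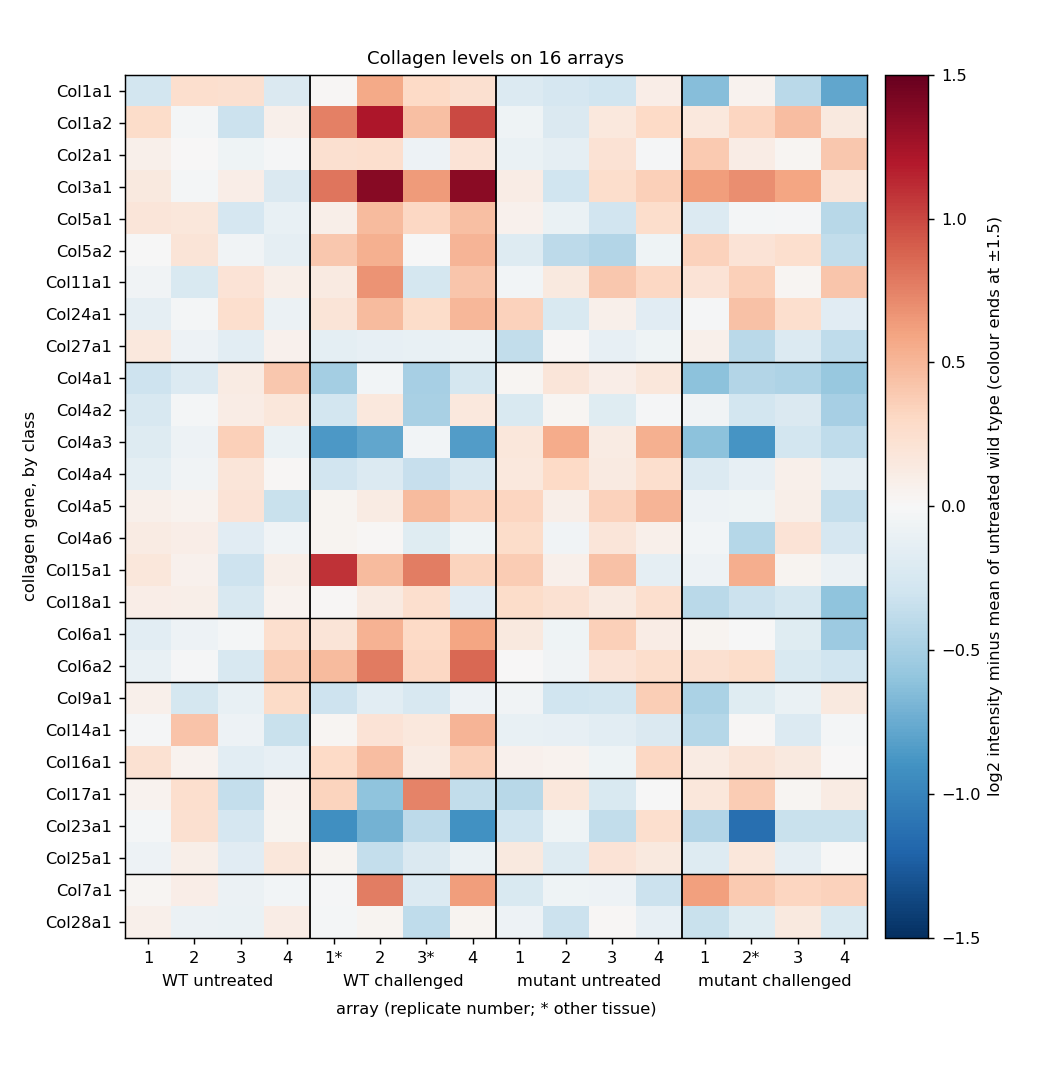
Log2 intensity of the 27 tested collagens (rows, by class) on the 16 arrays (columns, by group and replicate number), minus the mean of the untreated wild type. Red is higher and blue lower, the colour scale ends at 1.5 in either direction, and an asterisk marks the 3 other-tissue arrays; Col3a1 and Col1a2 are reddest on challenged wild-type arrays 2 and 4, and Col4a3 is blue on 3 of the 4 challenged wild-type arrays.

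The third comparison set mutant against wild type. In untreated lung 0 of 27 collagens passed limma's test, where 0% of all features did, and 2 had an unadjusted p under 0.05, both higher in the mutant, where 5.4% of all features were higher at that level. These were Col4a4 and Col4a5, with differences of 0.21 and 0.31 on the log2 scale (adjusted p = 0.347 and 0.36). Col18a1 differed by 0.23 (adjusted p = 0.415), and its untreated mutant arrays, at 1045 to 1151, all lay above its untreated wild-type arrays, at 796 to 1011. It was the 1 collagen with such a gap, which 2.98% of all features had.

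In challenged lung 0 of 27 collagens passed over all 8 arrays, where 0.0167% of all features did. An unadjusted p under 0.05 was found for 10 collagens, all lower in the mutant, where 5.71% of all features were lower at that level. The challenged groups did not overlap for 5 collagens that were lower, where 2.77% of all features were, and for 1, Col4a4, that was higher, where 3.79% were. The 10 collagens were Col1a1, Col1a2, Col3a1, Col5a1, Col6a1, Col6a2, Col14a1, Col15a1, Col18a1 and Col4a5. Col1a1 had the lowest estimate, -0.72 ± 0.18, with an adjusted p of 0.153 and a 95% interval of -1.09 to -0.35. Its challenged mutant arrays read 363, 616, 436 and 328, and the value of 616, on the other-tissue array, was the only one inside the challenged wild-type range of 598 to 893. The median over all 27 collagens was -0.19, with 18 below 0, against 0.02 over all features, of which 45.9% lay below 0.

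Without the 3 other-tissue arrays, 4 collagens passed, all lower in the mutant, where 0.527% of all features were lower and 0.192% higher. Col1a1 differed by -1.01 ± 0.19 (adjusted p = 0.0269), Col6a2 by -0.91 ± 0.19 (adjusted p = 0.042), Col3a1 by -0.89 ± 0.19 (adjusted p = 0.0445) and Col1a2 by -0.85 ± 0.18 (adjusted p = 0.0497). Col6a1 (-0.78, adjusted p = 0.0543) and Col5a1 (-0.68, adjusted p = 0.0995) did not pass. That setting sets 2 wild-type arrays against 3 mutant arrays. Fat markers still differed there, at -1.43 to -1.02 on these wild-type and -0.70 to -0.08 on these mutant arrays, without overlap. Col6a2 read 1052 and 1116 on these wild-type arrays and 713, 506 and 476 on these mutant arrays. Fibroblast markers stood at -0.37 to -0.27 on the same wild-type and -0.27 to -0.17 on the same mutant arrays. This level is a mean of members that went opposite ways. Inmt read 5099 and 6223 on these wild-type and 11498, 12247 and 12412 on these mutant arrays. Pdgfra and Pdgfrb were also higher in the mutant, without overlap. Fbln1, at 2344 and 2376 against 1626, 2037 and 1741, and Clec3b were lower in the mutant. The other fibroblast markers overlapped. The part of fibroblasts was not tested. Smooth muscle markers stood at -0.63 to -0.31 on these wild-type and -0.67 to -0.32 on these mutant arrays. With the muscle level as a covariate over all arrays, 0 collagens passed this comparison in limma. Leaving out only challenged mutant replicate 2 left 1 collagen called, Col1a1 (adjusted p = 0.0461).

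**Figure D4:**
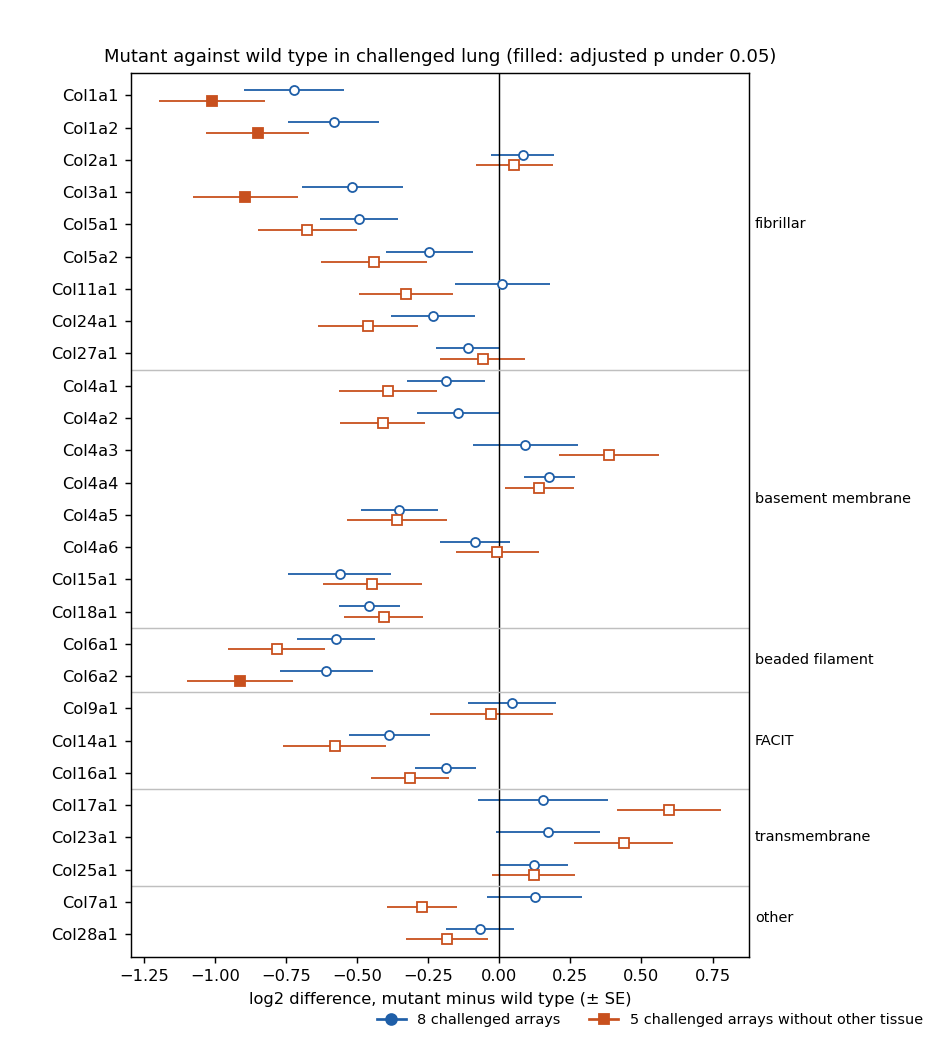
Log2 difference between challenged mutant and challenged wild type (x axis, mutant minus wild type, ± SE) of the 27 collagens (y axis), over all 8 challenged arrays (blue circles) and over the 5 without other tissue (orange squares). Filled symbols have an adjusted p under 0.05, which holds for 0 genes in the first setting and for Col1a1, Col1a2, Col3a1 and Col6a2 in the second.

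The interaction asked whether the response to challenge differed between genotypes, and 0 of 27 collagens passed, where 0% of all features did. The median was -0.23, with 18 collagens below 0, where 47.4% of all features were. An unadjusted p under 0.05 was found for 9 collagens, all with the lower response in the mutant, where 5.06% of all features were lower at that level. Col18a1 had the smallest p (-0.68 ± 0.15, adjusted p = 0.18), followed by Col6a1 (-0.71 ± 0.20, adjusted p = 0.198) and Col4a5 (-0.67 ± 0.19, adjusted p = 0.22). For Col3a1 the interaction was -0.62 ± 0.25 (adjusted p = 0.346, 95% interval -1.15 to -0.10). Without the 3 arrays it was -1.02 for Col6a2 (adjusted p = 0.105), -0.92 for Col6a1 (adjusted p = 0.109) and of about the same size for Col3a1 (adjusted p = 0.108), and 0 collagens passed, where 0.092% of all features were higher and 0.192% lower. On simulated data the interaction test recovered 38.8% of 1.5-fold and 82.1% of 2-fold differences, so a 1.5-fold difference was often missed there with 4 arrays per group. The simulation fixed how many features changed, and the adjusted p depends on that number. These shares may therefore be too high for the real arrays, where 0% of all features passed. Averaged over treatments, 0 collagens passed between genotypes, where 0.0251% of all features did, and 8 had an unadjusted p under 0.05, where 12.2% of all features had.

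Collagens known to work together were compared by their array-to-array spread within groups. After subtraction of the group means, Col6a1 and Col6a2 correlated at r = 0.82 over the 16 arrays and Col4a1 and Col4a2 at 0.70. Lower values were found for other chains known to share a molecule, with 0.63 for Col5a1 and Col5a2, 0.40 for Col4a3 and Col4a4, 0.33 for Col4a3 and Col4a5, 0.16 for Col1a1 and Col1a2 and 0.09 for Col4a4 and Col4a5. Col4a5 and its neighbour Col4a6 correlated at 0.14. Between chains of different collagen types, Col1a2 and Col3a1 correlated at 0.71, and Col5a1 and the fibril-associated Col16a1 at 0.81. Col1a2 also correlated with Col28a1 at 0.77 and with Col16a1 at 0.74, and Col4a2 with Col7a1 at 0.72. A high value was thus not particular to chains that share a molecule. Over all pairs of tested collagens r ran from -0.70 to 0.82. These values describe arrays that share tissue make-up and normalisation. Col17a1, the collagen of hemidesmosomes in stratified epithelium, followed the muscle level at 0.81, the squamous epithelium level at 0.74 and the fat level at 0.83. In challenged wild type it read 162, 64.7, 228 and 84.1, and the 2 high values were those of the other-tissue arrays.

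Genes that make, cross-link, anchor or break down collagen were read beside the family, in 4 lists. Of all features, 8.19% were higher and 9.43% lower in challenged wild type, and 12.1% higher and 11.7% lower in challenged mutant. The counts are read against these shares, and no list was tested as a whole. Results of these lists are given over all 16 arrays only. Of 19 tested genes of procollagen synthesis, 1 was higher and 2 were lower in challenged wild type, and 2 were higher and 5 lower in challenged mutant. Serpinh1, the collagen chaperone of the endoplasmic reticulum, read 133, 116, 124 and 54.2 in untreated and 187, 300.3, 226 and 240.1 in challenged wild type. It rose by 0.94 ± 0.20 (adjusted p = 0.00436) there, without overlap, and by 0.69 ± 0.20 (adjusted p = 0.0184) in the mutant. Plod2, which hydroxylates lysines used in cross-links, fell by 0.60 (adjusted p = 0.00202) and by 0.38 (adjusted p = 0.0207). Crtap, part of the complex that modifies prolines of the chains, and Kdelr2, which returns chaperones to the endoplasmic reticulum, fell in the mutant by 0.44 (adjusted p = 0.00622) and by 0.51 (adjusted p = 0.00613), with changes of 0.02 and 0.10 in wild type that did not pass.

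Of 10 tested genes of extracellular processing and cross-linking, 0 were higher and 1 was lower in wild type, and 1 was higher and 2 were lower in the mutant. These counts are near the shares over all features (8.19% higher and 9.43% lower in wild type, 12.1% and 11.7% in the mutant). Pcolce2, an enhancer of procollagen cleavage, fell by 0.65 in wild type (adjusted p = 0.0199), and its relative Pcolce fell by 0.49 in the mutant (adjusted p = 0.0235). The cross-linking enzyme Lox changed by -0.72 in wild type (adjusted p = 0.0521) and fell by 0.70 in the mutant (adjusted p = 0.0456). Loxl1, known for its part in elastic fibres, rose by 0.38 in the mutant (adjusted p = 0.0186).

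Partners of type IV collagen in the basement membrane numbered 11, with 0 higher and 1 lower in wild type and 1 higher and 3 lower in the mutant. Over all features the shares were 8.19% and 9.43%, and 12.1% and 11.7%. The laminin chain Lamc3 fell by 0.61 (adjusted p = 0.00485) and by 0.38 (adjusted p = 0.0447). In the mutant the laminin chain Lamc1 fell by 0.40 (adjusted p = 0.0173) and the linker Nid2 by 0.59 (adjusted p = 0.0266), while its relative Nid1 rose by 0.39 (adjusted p = 0.00612). Nid2 read 69.4 to 71.5 in untreated mutants and 12.1 to 48.8 after challenge, without overlap.

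Of 12 tested receptors and enzymes of breakdown, 2 were higher and 0 lower in wild type, and 4 were higher and 2 lower in the mutant. The shares over all features were again 8.19% and 9.43%, and 12.1% and 11.7%. Mmp13, an interstitial collagenase, read 48.7, 55.8, 306 and 53.9 in untreated and 512, 750.2, 163 and 482 in challenged wild type. These groups overlapped through 1 high untreated and 1 low challenged array, and the log2 change was 1.84 ± 0.43 (adjusted p = 0.00843) in wild type and 1.70 ± 0.43 (adjusted p = 0.0103) in the mutant. Mmp14, a membrane-bound enzyme that cuts fibrillar collagen, rose by 0.72 (adjusted p = 0.0166) and by 0.84 (adjusted p = 0.00591). In wild type its challenged replicate 3, an other-tissue array, read 1461, inside the untreated range of 1116 to 1558. In the mutant Lair1, an inhibitory collagen receptor of leukocytes, rose by 0.51 (adjusted p = 0.00861). It read 5.9 to 19.0 on the untreated mutant arrays, close to the background limit of 16.8, and 27.3 to 50.8 on the challenged ones. The fibrillar collagen receptor Ddr2 fell in the mutant by 0.45 (adjusted p = 0.00953). Its bound is at least 1.07-fold, since no challenged mutant array was above background. In the genotype comparisons and the interaction, 0 genes of these 4 lists passed.

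Over all arrays, Col9a1, Col14a1, Col16a1, Col25a1 and Col28a1 had challenge changes between -0.20 and 0.31 in either genotype and did not pass. Of the 59 collagen probes, 25 were above background on all 16 arrays and 16 on none. The 22 probes left out read between -36.0 and 27.1 and were above background on at most 3 arrays. The 10 genes left untested by them were Col5a3, Col11a2, Col6a6, Col9a2, Col9a3, Col19a1, Col8a2, Col10a1, Col13a1 and Col26a1, several of which are known from cartilage, so no statement is made on their change.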

How the data were processed

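Total RNA from part of the lung of 16 mice was labelled as biotin cRNA and hybridised to Illumina mouse bead arrays, 1 mouse per array and 4 per group, per the labels' protocols. The deposited values are probe intensities on a linear scale. They behave as background subtracted, since 23.5% to 23.8% of each array's values lie below 0, and as normalised between arrays, since the array medians are nearly equal. All 16 arrays also share the same upper quartile (220.674) and highest value (48649.2), as arrays brought to a common distribution would. The submitters' processing notes name GenomeStudio 2011.1 without its role; the sources used here give no method of normalisation. A further deposited table was not used, since its 16 signal and 16 detection columns carry names that match no label.

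Intensities were corrected with limma 3.58.1 in R 4.3.3 (normexp, offset 16, fitted noise mean -24.8, SD 2.73) and put on the log2 scale. This understates changes, most of all for dim probes, and still for genes of middle intensity. Mean Col15a1 intensity was 105 in untreated and 193 in challenged wild type, for example, and its fitted fold was 1.59. The background limit of 16.8 is the 95th percentile of noise with an SD of 10.2, mirrored from the values below 0. A probe was kept if it exceeded this limit on 4 or more arrays, and the brightest kept probe stood for a gene. All 11962 features were fitted together for the 4 groups (12 residual and 4.75 prior degrees of freedom), and the threshold was an adjusted p of 0.05 in limma (Benjamini-Hochberg, taken over every feature tested). Intervals are 95% intervals. The comparisons share arrays, so their results are not independent.

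The collagens, the gene lists and the marker lists were chosen with earlier results of these data known. Collagens past the threshold in any comparison, those of smallest p and the brightest of each class were named by rule, as were 4 members of each related list and Cox4i2. Others named in the text (Col5a1, Col4a2, Col4a6, Col17a1 and the remaining tested collagens) were named to account for every member, after their values were seen. On data simulated for the 11962 features, 67.2% of 1.5-fold and 97% of 2-fold changes were recovered in the wild-type challenge comparison. The simulation fixed how many features changed, so these shares may not hold for the real arrays. The number of arrays limits the precision. Same-numbered replicates of different groups mostly did not deviate together (3 of 24 pairs correlated above 0.1), and no block was used. Alternatives covered the offset, the correction, the filter, the choice of probe, the samples fitted, array weights, the muscle level and each array left out. A fit with a noise mean of 0 was added after the data were seen.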

Additional observations from a re-analysis of the deposited data

Results flagged for a closer look

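Of 64 combinations of a named collagen and a group of 4 arrays, 3 had 1 array far from the other 3 by Dixon's test, and chance alone gives about 1 in 20. Col4a3 read 311 on replicate 3 of the challenged wild type, an other-tissue array, and 159 to 169 on the other 3. Col18a1 read 796 on replicate 3 of the untreated wild type and 985 to 1011 on the others. Col23a1 read 129 on replicate 2 of the challenged mutant, also an other-tissue array, and 233 to 255 on the others. The gaps made up 0.908, 0.892 and 0.858 of the range of each group.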

How the results depend on the processing

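The challenge counts stayed within 1.5 times of those reported under every alternative other than leaving out a single array, at 5 to 9 collagens in wild type (7 reported), 5 to 8 in the mutant (6 reported) and 9 to 12 on average over genotypes (9 reported). As single arrays were left out, they ranged from 4 to 9 in wild type, from 3 to 7 in the mutant and from 9 to 12 on average. Mutant against wild type in challenged lung gave 4 collagens without the 3 other-tissue arrays and 0 to 1 as single arrays were left out. In untreated lung, averaged over treatments and in the interaction, 0 collagens passed under every alternative run. No called change reversed its direction. The numbers shared by replicates gave no general pairing of the arrays. Correlations of same-numbered arrays ran from -0.496 to 0.262, with 3 of 24 above 0.1. These 3 were replicates 2 and 3 of the untreated groups and replicate 4 of the challenged groups, each with its own number as best match. With the replicate number as a block, 6 collagens passed in wild type, where Col4a4 was lost (adjusted p = 0.057), 6 in the mutant, 9 on average over genotypes and 0 in the other comparisons. The cause of these shifts was not tested. Signal over background limits the dim collagens: the 10 untested genes and the genes above background on few arrays, such as Col5a2 and Col11a1, have changes that are understated or unknown.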
